A study of Rattus norvegicus with 30 samples.

Results

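A set of 9 genes, grouped as alveolar type I and caveolar genes, was followed in rat lung after inhalation of copper oxide nanoparticles. They are Ager, Aqp5, Pdpn, Hopx, Clic5, Cldn18, Cyp4b1, Cav1 and Cav2, and they were taken as every array probe whose RefSeq transcript belongs to 1 of these symbols. The 9 genes had 10 probes, 2 of them for Pdpn, among 18421 genes tested and 20853 of 30367 probes kept. All 10 probes were well above background in lung RNA on all 30 arrays, so none was lost to the filter on dim probes.

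Alveolar type I cells are large, flat epithelial cells that line most of the alveolar surface and let gas pass to the capillaries beneath them. Type II cells make surfactant and are the progenitors from which type I cells are renewed after injury. Caveolae are flask-shaped pits of the cell membrane, built from caveolins and cavins, and both type I cells and capillary endothelium are rich in them. Because the RNA came from whole lung tissue, fewer cells of a type and less RNA per cell cannot be told apart in any value below.

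The animals were adult male outbred Wistar Unilever rats (HsdCpb:WU), 8 weeks old when obtained and acclimatized for 2 weeks. They breathed copper oxide nanoparticles nose-only at a 6 h equivalent of 3.3 mg/m3 (low dose) or 13.2 mg/m3 (high dose), or air alone, on 5 days in a row. Lungs were taken 1 day after the last exposure (day 6) or 22 days after it (day 28), which makes 6 groups of 5 rats, each rat on 1 array. Each array compared the lung RNA of 1 rat (200 ng, labelled with the dye Cy5) with a common reference RNA (labelled with Cy3), and the sample labels name that reference both as a mouse and as a rat reference. Values are log2 ratios of lung over reference unless another scale is named, so that a difference of 1 between groups is a doubling of the ratio.

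The median Cy5 intensity of the arrays lay between 216 and 432, and 59.5% to 68.4% of probes were well above background. The tissue label held on its markers: Sftpc, the surfactant protein of type II cells, lay between 9.30 and 10.81 in the 30 rats, and Scgb1a1, the secretory protein of club cells, between 5.07 and 6.19. The type I markers Ager, Aqp5, Pdpn and Hopx were all above the reference in every rat, with a lowest value of 3.28 for Hopx. Air rat 4 of day 6 stood apart in 10 heart muscle genes, whose mean log2 ratio was 4.28 there and at most -0.32 in the other 4 air rats of day 6. Rat 4 also had 5.39 in the club cell list, with those 4 at 3.13 to 3.40, and 3.66 in the ciliated cell list, with those 4 at 2.36 to 2.64. Low dose rat 49 of day 6 had 1.72 in the heart muscle list, with the other low dose rats at -1.13 to -0.68. In the club cell list it had 4.73, with the others at 3.10 to 3.62. On day 28, low dose rat 54 had 0.86 in the heart muscle list, with the other low dose rats at -1.23 to -0.77. High dose rat 83 of that day had 0.87, with the other high dose rats at -1.2 to -0.49. High dose rat 81 of day 28 had the background-corrected ratios furthest from the authors' deposited table (r = 0.9672 over probes, and at least 0.9895 for every other array). Without background subtraction its ratios correlated with that table at 0.9992. These rats are named again below where results rest on them.

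At the high dose on day 6, 6 of the 9 genes fell against air and 0 rose (adjusted p under 0.05, limma with Benjamini-Hochberg adjustment over all genes). Over all genes tested 15.4% fell, 21.1% rose and 36.5% passed the test in either direction. The median log2 fold change of the 9 genes was -0.58, against 0.01 over all genes. Cav1, Cyp4b1 and Cav2 fell by more than a factor of 2 and Pdpn, Clic5 and Hopx by less, while Ager, Aqp5 and Cldn18 did not pass the test on the ratio scale. The air rats serve both doses, so the low dose and high dose comparisons of a day share their controls.

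Cav1 encodes caveolin-1, the membrane protein without which caveolae do not form in most cells. Its log2 ratio on day 6 was 1.90, 2.12, 2.28, 2.34 and 2.59 in the 5 air rats. In the 5 high dose rats it was 0.06, 0.46, 0.62, 0.89 and 1.20. The highest high dose rat thus lay below the lowest air rat, which was rat 4. Cav1 fell by 1.60 ± 0.14 (SE, log2 fold change, n = 5 rats per group), or 3.03-fold, with a limma adjusted p of 8.34e-10. Without air rat 4 the log2 fold change was -1.69.

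Cav2 encodes caveolin-2, which forms complexes with caveolin-1 and depends on it to reach the cell surface. The 5 air rats had 2.48, 2.85, 2.85, 2.94 and 3.01 on day 6. The 5 high dose rats had 0.85, 1.33, 1.35, 1.91 and 2.14, again with no overlap. The log2 fold change was -1.31 ± 0.20 (SE, n = 5 rats per group, limma adjusted p = 7.27e-06), a fall of 2.48-fold. Rat 79 was the lowest and rat 76 the highest of the high dose rats for Cav1 and for Cav2 alike.

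Cyp4b1 encodes a cytochrome P450 of the lung that oxidizes fatty acids and activates some inhaled toxicants. Air rats of day 6 lay close together, at 4.41, 4.48, 4.51, 4.62 and 4.70. High dose rats had 2.45, 2.90, 3.06, 3.38 and 3.54 and all lay below the lowest air rat. The log2 fold change was -1.48 ± 0.23 (SE, n = 5 rats per group, limma adjusted p = 8.57e-06), a fall of 2.79-fold.

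The 250 bases upstream of the starts that RefSeq lists (assembly GRCr8) are shown for these 3 genes because they moved furthest, and for Cldn18 because it alone had a fold change above 0. Capitals mark the motifs searched on both strands: TATAAA, the GC box GGGCGG that Sp and Klf factors bind, GGAATG (bound by Tead factors), TGANTCA (bound by AP-1), AGATAA (bound by Gata factors) and CAAGTG (bound by Nkx2 factors). Cav1 and Cav2 are neighbours on chromosome 4 with 0 protein-coding genes between them, and Cav1 has a second listed start whose window holds none of the 6 motifs.
Cav1, chr4:46606288-46606537, + strand: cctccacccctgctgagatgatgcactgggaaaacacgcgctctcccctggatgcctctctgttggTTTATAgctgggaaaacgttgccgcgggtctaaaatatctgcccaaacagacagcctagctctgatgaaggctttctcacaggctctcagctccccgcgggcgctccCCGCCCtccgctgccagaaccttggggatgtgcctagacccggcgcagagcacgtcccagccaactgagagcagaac
Cav2, chr4:46582431-46582680, + strand: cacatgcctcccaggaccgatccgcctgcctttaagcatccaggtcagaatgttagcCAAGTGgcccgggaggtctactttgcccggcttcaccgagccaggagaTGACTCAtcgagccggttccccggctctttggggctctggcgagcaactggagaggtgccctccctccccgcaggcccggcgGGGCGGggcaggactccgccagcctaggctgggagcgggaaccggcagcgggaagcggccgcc
Cyp4b1, chr5:134393117-134393366, - strand: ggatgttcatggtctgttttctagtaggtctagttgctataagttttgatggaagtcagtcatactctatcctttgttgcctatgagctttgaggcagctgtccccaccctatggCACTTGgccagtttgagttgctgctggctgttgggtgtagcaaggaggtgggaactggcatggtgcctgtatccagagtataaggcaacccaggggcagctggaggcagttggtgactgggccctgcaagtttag
Cldn18, chr8:109144620-109144869, - strand: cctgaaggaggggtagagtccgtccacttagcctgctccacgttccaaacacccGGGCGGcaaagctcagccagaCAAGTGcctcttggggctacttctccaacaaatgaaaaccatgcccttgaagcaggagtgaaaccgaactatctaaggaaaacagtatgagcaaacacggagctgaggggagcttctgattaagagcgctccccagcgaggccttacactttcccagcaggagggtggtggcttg

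Over 33469 promoter windows of the same length, 30.5% held GGGCGG, 12.9% TATAAA, 12.1% GGAATG, 11.7% CAAGTG, 10.3% AGATAA and 6.34% TGANTCA. Of the 10 windows of the 9 genes, 6 held GGGCGG, 3 held CAAGTG, 1 each held TATAAA and TGANTCA, and 0 held GGAATG or AGATAA. The windows with CAAGTG were those of Cav2, Cyp4b1 and Cldn18, which did not move alike. The letters in the windows did not sort the genes that fell from those that did not.

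Pdpn encodes podoplanin, a mucin-like glycoprotein of the apical surface of type I cells. Its brighter probe had 3.73, 4.11, 4.28, 4.58 and 4.65 in the air rats of day 6 and 3.50, 3.53, 3.62, 3.67 and 3.86 in the high dose rats. The groups overlapped through air rat 4 alone, at 3.73. The log2 fold change was -0.63 ± 0.13 (SE, n = 5 rats per group, limma adjusted p = 0.000264), and -0.77 without that rat. The other Pdpn probe gave -0.36 ± 0.20 with an adjusted p of 0.16, so only the brighter probe passed the test.

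Hopx encodes a small homeodomain protein that marks type I cells and their precursors. It was the tightest of the 9 genes in the high dose rats, at 3.28, 3.35, 3.36, 3.37 and 3.41. The air rats of day 6 had 3.55, 3.61, 3.67, 3.81 and 3.84, all higher. The fall was small against those of the caveolins, with a log2 fold change of -0.34 ± 0.08 (SE, n = 5 rats per group, limma adjusted p = 0.00189). It did not pass when the arrays were centred on the median in place of loess (adjusted p = 0.151).

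Clic5, a chloride intracellular channel family member tied to the actin cytoskeleton, had the highest ratio of the 9 genes. Air rats of day 6 had 7.38, 7.71, 7.78, 7.82 and 8.04, and high dose rats 6.79, 7.15, 7.17, 7.23 and 7.49. Air rat 2 and high dose rat 75 made the groups overlap. The log2 fold change was -0.58 ± 0.20 (SE, n = 5 rats per group, limma adjusted p = 0.0208), and the call was lost without air rat 3 (adjusted p = 0.0612), without high dose rat 79 (adjusted p = 0.0694) and with the scanner software's processed signals (adjusted p = 0.167).

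Ager encodes the receptor for advanced glycation end products, which type I cells hold at high levels on their basal side. It had 3.93, 4.07, 4.08, 4.10 and 4.15 in the air rats of day 6 and 3.75, 3.78, 3.88, 3.90 and 4.17 in the high dose rats. High dose rat 75 lay above every air rat while the other 4 lay below them all. The log2 fold change was -0.17 ± 0.10 (SE, n = 5 rats per group, limma adjusted p = 0.196), with a 95% interval from -0.37 to 0.04.

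Aqp5, the water channel of the apical membrane of type I cells, had 4.54 in air rat 2 and 5.01, 5.02, 5.09 and 5.15 in the other air rats of day 6. The high dose rats had 4.48, 4.61, 4.65, 5.05 and 5.08, spread over the range of the air rats. The log2 fold change was -0.19 ± 0.15 (SE, n = 5 rats per group, limma adjusted p = 0.345), with a 95% interval from -0.50 to 0.12. Cldn18, a tight junction claudin whose lung form seals both type I and type II cells, had 4.11, 4.31, 4.40, 4.48 and 4.73 in air rats and 4.51, 4.53, 4.53, 4.68 and 5.14 in high dose rats. Its log2 fold change of 0.27 ± 0.24 did not pass the test (limma adjusted p = 0.413), and with the processed signals it was -0.35.

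**Figure D1:**
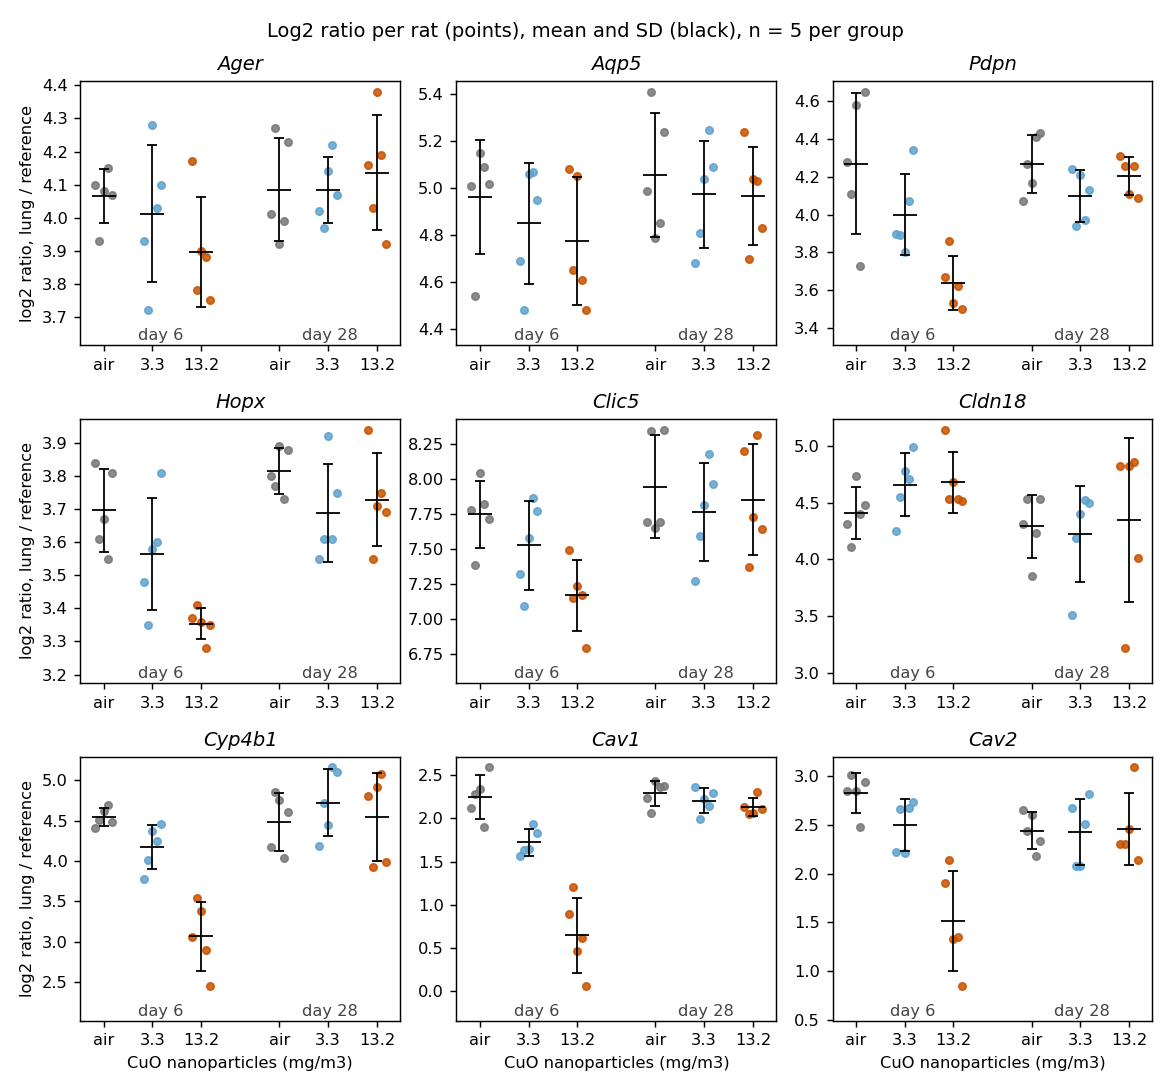
Log2 ratio of lung over reference (vertical axes, each with its own range) for the 9 genes in every rat, by dose in mg/m3 and day. Points are rats, black bars the mean and SD of 5 rats. Cav1, Cav2, Cyp4b1 and Hopx at 13.2 mg/m3 on day 6 lie below all 5 air rats, and on day 28 the groups of every gene overlap. The share of all genes separated from air in this way was not counted.

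The ratio depends on both dyes, so each channel was also tested alone after quantile normalization between arrays. On Cy5 alone, which carries the lung RNA, 8 of the 9 genes fell at the high dose on day 6 and 1 rose, against 39.1% of all genes called on that scale, 21.2% that fell and 17.9% that rose. Ager was 15.26 ± 0.32 (SD, n = 5) in log2 Cy5 intensity in air rats and 14.54 ± 0.37 (SD, n = 5) in high dose rats, a difference of -0.73 ± 0.24 (SE, limma adjusted p = 0.0153). Aqp5 was 14.88 ± 0.42 and 14.26 ± 0.30 (SD, n = 5 each), a difference of -0.61 ± 0.16 (SE, limma adjusted p = 0.00272). Both genes, which did not pass on the ratio scale, thus fell on Cy5 alone.

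On the same scale Clic5 fell by 1.08 ± 0.13 (SE, limma adjusted p = 1.91e-07), with groups that did not overlap, and Cyp4b1 by 1.84 ± 0.22 (adjusted p = 1.91e-07). Cldn18 rose by 0.47 ± 0.13 in log2 Cy5 intensity (limma adjusted p = 0.00587), from 11.26 to 11.66 in air rats to 11.83 to 12.38 in high dose rats with no overlap. Cav1 (-1.44), Cav2 (-1.30) and Pdpn (-0.64) had nearly the same difference on Cy5 alone as on the ratio, and Hopx a larger one (-0.51).

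The Cy3 channel was examined after the Cy5 values were seen. Every array carried the same reference RNA in Cy3, yet the Cy3 intensity of some of these genes moved with the lung RNA on the same array. The high dose minus air difference in log2 Cy3 on day 6 was -0.52 for Ager, -0.44 for Clic5, -0.31 for Aqp5 and for Cyp4b1, and 0.22 for Cldn18. It was between -0.10 and 0.14 for Cav1, Cav2, Pdpn and Hopx. None of the 9 passed the test in Cy3, where 0.711% of all genes did.

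Within groups, over the 30 arrays, log2 Cy5 and log2 Cy3 of Ager correlated at 0.96, of Aqp5 at 0.82, of Hopx at 0.80, of Cldn18 at 0.73, of Cyp4b1 at 0.72 and of Clic5 at 0.66. For Cav1, Cav2 and Pdpn the same correlation lay between -0.03 and 0.08. These are descriptions, since both dyes share the spot and the array. Cldn18 was well above background in Cy3 on only 19 of 30 arrays, and its net Cy3 signal was 20 to 66 intensity units.

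The same held for other genes rich in lung RNA over the reference. Among 157 genes with a mean log2 ratio above 4, 40 passed the test in Cy3 at the high dose on day 6, and all 40 moved in the same direction as in Cy5. There the Cy3 difference rose by 0.40 per unit of Cy5 difference (r = 0.81 across these genes, which are not independent replicates). Among 8441 genes with a mean log2 ratio of 0 or less, 4 passed in Cy3 and the slope was 0.01. For Ager, Aqp5, Clic5, Cyp4b1 and Cldn18 the Cy3 difference had the same sign as the Cy5 difference, and the difference of the ratio was smaller than that of Cy5. That held for Hopx as well, with a Cy3 difference of only -0.10. Pdpn, also of high ratio, had a Cy3 difference of 0.03. What moved Cy3 was not tested.

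**Figure D2:**
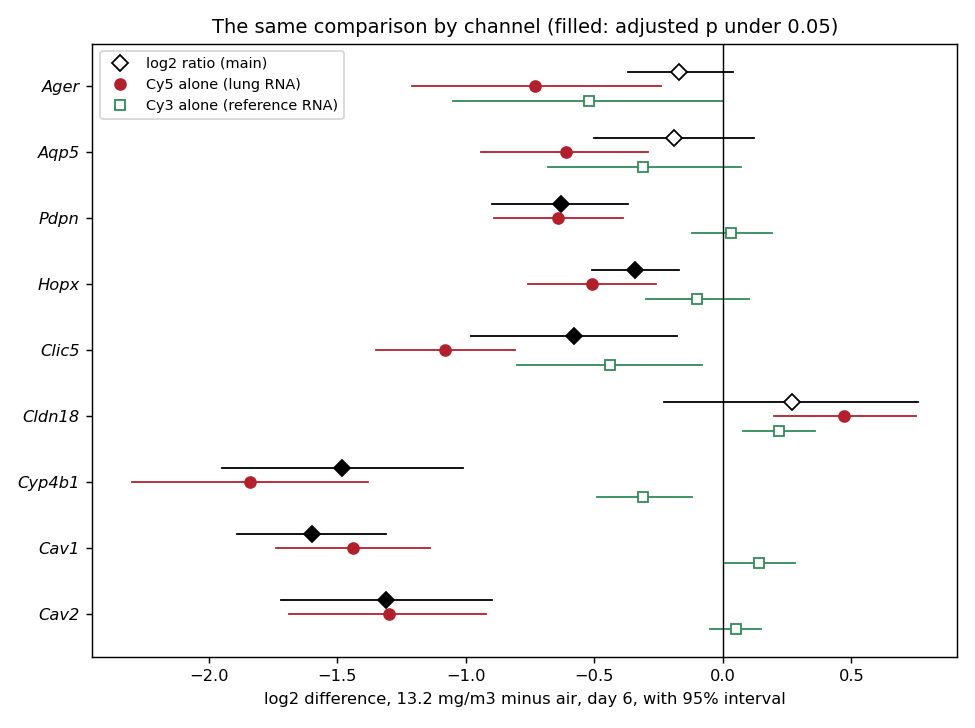
High dose minus air on day 6 for the 9 genes, as log2 ratio (diamonds), log2 Cy5 intensity (circles) and log2 Cy3 intensity (squares), with 95% intervals from limma. Filled symbols passed the test. Ager, Aqp5 and Clic5 lie further below 0 on Cy5 than on the ratio, and their Cy3 values lie below 0 as well, while Cav1 and Cav2 differ little between Cy5 and ratio.

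At the low dose on day 6, 1 of the 9 genes passed the test, against 6.72% of all genes in either direction and 1.75% lower. Cav1 had 1.57, 1.63, 1.65, 1.83 and 1.94 in the low dose rats, below 4 of the 5 air rats, and only air rat 4 (1.90) overlapped with them. It fell by 0.52 ± 0.14 (SE, log2 fold change, n = 5 rats per group, limma adjusted p = 0.0226). The call was lost with median centring (adjusted p = 0.288) and without low dose rat 48 (0.0611), air rat 5 (0.0947) or air rat 3 (0.056). Without low dose rat 49 the log2 fold change of Cav1 was -0.50 (adjusted p = 0.0454). Without air rat 4 Cav1 stayed called and Pdpn passed as well (log2 fold change -0.40, adjusted p = 0.0273).

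Markers of other cells moved at this dose as well, and their part in the value of Cav1 was not tested. Of 11 proliferation genes 9 rose, of 11 macrophage markers 4 and of 8 other leukocyte markers 3, against 4.97% of all genes that rose. The leukocyte list mean was 1.07 to 1.39 in the low dose rats and -0.10 to 0.22 in the air rats.

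The other 8 genes lay between -0.37 (Cyp4b1) and 0.25 (Cldn18) at the low dose, and 8 of the 9 log2 fold changes were below 0. Cyp4b1 had 3.78, 4.01, 4.25, 4.37 and 4.46 in the low dose rats, which overlapped with the air rats. On Cy5 alone 3 of the 9 passed: Cav1 (-0.52, adjusted p = 0.0218), Clic5 (-0.49, adjusted p = 0.017) and Cldn18 (0.43, adjusted p = 0.0425), all from limma, against 9.26% of all genes on that scale.

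The 2 doses were then compared with each other on day 6, where 3 of the 9 genes were lower at the high dose, against 11.9% of all genes in either direction and 3.87% lower. Cyp4b1 differed by -1.11 ± 0.23 (SE, limma adjusted p = 0.0013), Cav1 by -1.08 ± 0.14 (adjusted p = 5.07e-06) and Cav2 by -0.98 ± 0.20 (adjusted p = 0.00118). In each of these 3, which the test had picked on the same rats, the 5 high dose rats lay below the 5 low dose rats. The share of all genes separated in this way was not counted. For Cav1 the order air, low dose, high dose held with only air rat 4 and low dose rat 50 out of place. Pdpn (-0.36, adjusted p = 0.0629), Hopx (-0.21, adjusted p = 0.104) and Clic5 (-0.36, adjusted p = 0.272) did not pass in the main fit. On Cy5 alone Clic5 did (-0.59, limma adjusted p = 0.00238), where 2431 of 18421 genes passed in either direction.

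On day 28, 0 of the 9 genes passed the test against air at the high dose and 0 at the low dose, and 0 also at an unadjusted p under 0.05 in limma. Over all genes 0.185% passed at the high dose, 0.0109% at the low dose and 0.141% between the doses, where 0 of the 9 passed as well. At the high dose the 9 log2 fold changes on day 28 lay between -0.16 (Cav1) and 0.06 (Cyp4b1 and Cldn18). Cav1 had 2.05, 2.06, 2.11, 2.13 and 2.31 in the high dose rats and 2.06, 2.24, 2.36, 2.37 and 2.43 in the air rats. Its 95% interval ran from -0.45 to 0.13, so a remaining fall as large as that of day 6 lay outside it.

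Cav2 had 2.14, 2.30, 2.30, 2.46 and 3.09 in the high dose rats of day 28 and 2.18, 2.34, 2.44, 2.60 and 2.65 in the air rats, with full overlap. Cyp4b1 had 3.92, 3.99, 4.81, 4.92 and 5.08 in the high dose rats and 4.04, 4.17, 4.61, 4.76 and 4.85 in the air rats. Cldn18 ran from 3.22 in rat 81 to 4.86 in rat 83, and the low end rests on rat 81 and on the ratio scale: its log2 Cy5 intensity of 11.49 lay within the 11.33 to 12.21 of that group. Without rat 81 the log2 fold change on day 28 was 0.34 for Cldn18 and 0.21 for Cyp4b1, and neither passed (limma adjusted p = 0.513 and 0.709).

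The high dose effect differed between days for 4 of the 9 genes, each by a higher value on day 28, against 16.7% of all genes in either direction and 5.49% higher. The difference of the log2 fold changes, day 28 minus day 6, was 1.53 ± 0.32 for Cyp4b1 (SE, limma adjusted p = 0.0011), 1.44 ± 0.20 for Cav1 (adjusted p = 6.63e-06), 1.33 ± 0.28 for Cav2 (adjusted p = 0.00125) and 0.57 ± 0.18 for Pdpn (adjusted p = 0.0285). The Pdpn call was lost with the mean of its probes (adjusted p = 0.0721), with median centring (adjusted p = 0.297) and without any of air rats 3 and 5 of day 6, air rat 6 of day 28 or high dose rats 77 and 79.

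Hopx (0.25, adjusted p = 0.149) and Clic5 (0.49, adjusted p = 0.249) did not pass in the difference between days, although both had fallen on day 6. On Cy5 alone 7 of the 9 passed it, with Ager (1.07, limma adjusted p = 0.0223), Aqp5 (0.62, adjusted p = 0.0487) and Clic5 (1.05, adjusted p = 0.000127) added to the 4, against 19.8% of all genes. For the low dose, 0 of the 9 effects differed between days by limma, against 1.95% of all genes; at an unadjusted p under 0.05 there was 1, Cav1 (0.43, adjusted p = 0.438).

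Air rats of the 2 days gave 0 of the 9 genes past the test, and 0 at an unadjusted p under 0.05 in limma, against 2.95% of all genes. Cav2 had the largest difference of the 9, -0.38 ± 0.20 (SE, limma adjusted p = 0.238) from day 6 to day 28. The air level of Cav2 on day 28 (2.44 ± 0.19, SD, n = 5) was thus lower than on day 6 (2.83 ± 0.21, SD, n = 5) without passing, and part of its day 28 minus day 6 difference rests on it.

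**Figure D3:**
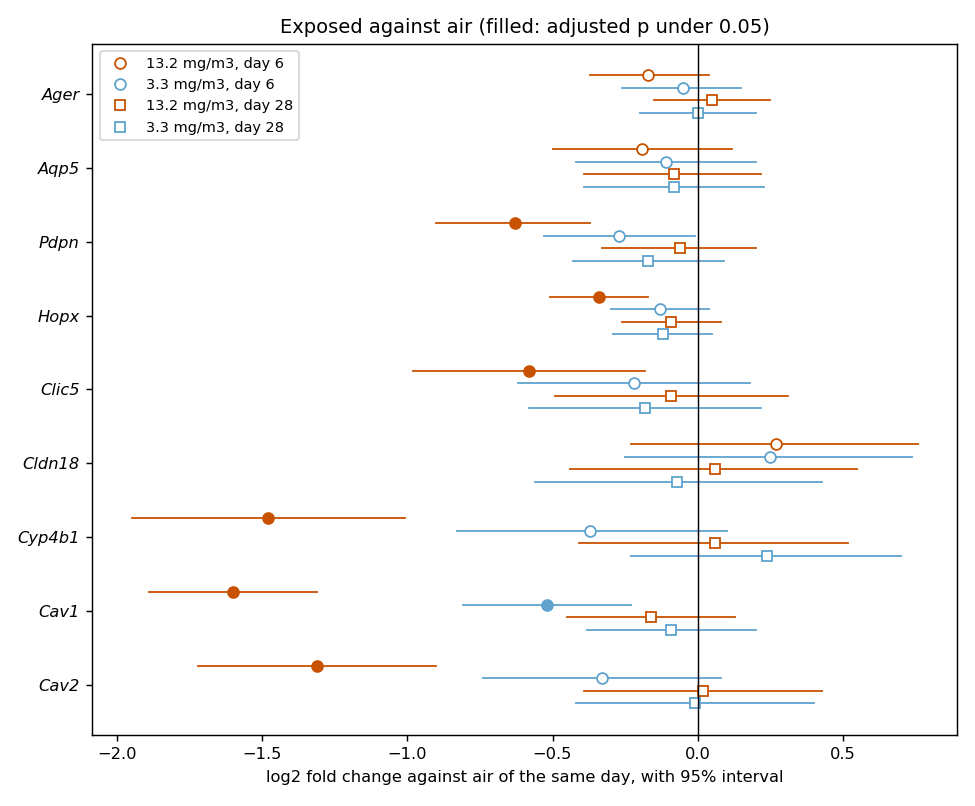
Log2 fold change of the ratio against air of the same day for the 9 genes (horizontal axis), with 95% intervals from limma, for both doses (colours) on day 6 (circles) and day 28 (squares). Filled symbols passed the test: 6 genes at 13.2 mg/m3 and Cav1 alone at 3.3 mg/m3 on day 6, and none on day 28.

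Arrays came on 4 slides, and each slide held air and high dose rats of day 6. Within slides the high dose log2 fold change on day 6 lay between -1.94 and -1.02 for Cav1, -1.91 and -0.57 for Cav2, and -1.84 and -0.90 for Cyp4b1. Clic5 lay between -0.81 and -0.33, Hopx between -0.42 and -0.17 and Pdpn between -1.04 and -0.06. The 6 genes that fell were below 0 on each slide, and the Pdpn value nearest 0 came from the slide that held air rat 4. These are the same rats that gave the calls, so the split is a description and no second test. Of these groups slide 3 held only air rat 4 and high dose rat 75, and slide 4 only air rat 3 and high dose rat 77. Ager (-0.30 to 0.02), Aqp5 (-0.37 to 0.01) and Cldn18 (-0.06 to 0.74) were not on 1 side of 0.

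Other genes of the same structures were read beside the 9. Of 14 further type I cell markers measured, out of 20 listed, 12 fell at the high dose on day 6 and 0 rose, with a median log2 fold change of -0.69. Cryab, a small heat shock protein, fell by 1.34 ± 0.16 (SE, limma adjusted p = 2.12e-07), and Sema3b, a secreted semaphorin, by 1.04 ± 0.11 (adjusted p = 2.28e-08). Gprc5a (0.12) and Scnn1g (-0.07) did not pass. On Cy5 alone 12 of the 14 fell too, against 21.2% of all genes, and on the ratio 11 did without air rat 4. At the low dose 3 of the 14 fell, against 1.75% of all genes: Cryab (-0.82), Vegfa (-0.59) and Sema3b (-0.47).

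The caveolar coat list held 13 genes of the coat, of its accessory proteins and of the flotillins. Of these 10 fell at the high dose on day 6, Flot2 among them, and 0 rose, with a median of -0.55. Ehd4, a membrane-shaping ATPase, fell by 0.78 ± 0.09 (SE, limma adjusted p = 1.93e-07), and Popdc2, a cyclic AMP binding membrane protein, by 0.91 ± 0.11 (adjusted p = 3.04e-07). The cavins, which coat caveolae, were singled out after their values were seen: Cavin2 (-1.33), Cavin3 (-0.69) and Cavin1 (-0.44) passed and Cavin4 (-0.19, adjusted p = 0.0549) did not. The flotillins, which build another kind of membrane domain, split, with Flot2 at -0.47 (adjusted p = 0.0422) and Flot1 at -0.05 (adjusted p = 0.584). At the low dose 1 of the 13 fell, Cavin2 (-0.77, limma adjusted p = 0.0273), against 1.75% of all genes. On Cy5 alone 5 fell at that dose, where 9.26% of all genes passed in either direction.

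The caveolins are shared with endothelium, and endothelial markers were lower too. Of 16 measured, 8 fell at the high dose on day 6 and 0 rose, with a median of -0.42, among them Acvrl1 (-0.77) and Flt1 (-0.67), receptors of the vessel wall, and Pecam1 (-0.42). The mean log2 ratio of the 16 was 3.70 to 4.0 in air rats of day 6 and 3.08 to 3.68 in high dose rats. Emcn (-0.01) and Cldn5 (-0.22) did not pass. On Cy5 alone 13 of the 16 fell, against 21.2% of all genes on that scale. How much of the caveolin change lay in endothelium and how much in epithelium was not tested.

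Markers of other cells moved at the same time, and their part in the 9 genes' values was not tested. Of 11 macrophage markers 9 rose at the high dose on day 6, led by Mmp12 (4.04) and Spp1 (3.06), against 21.1% of all genes. The macrophage list's mean was -0.35 to -0.14 in air rats and 0.62 to 1.96 in high dose rats. Of 8 other leukocyte markers 6 rose, with list means of -0.10 to 0.22 in air rats and 1.41 to 1.5 in high dose rats. Of 11 proliferation genes 10 rose, among them Cdk1 (2.58) and Tk1 (2.35), with list means of -3.47 to -3.19 and -1.71 to -1.46.

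The other epithelial lists are read against the 15.4% of all genes that fell and the 21.1% that rose. Of 12 type II markers 5 rose and 1 fell, with a median of 0.37, and on Cy5 alone 8 rose and 1 fell, with a median of 0.53. Ctsh, a protease that processes surfactant protein, rose by 2.23 and Etv5, a transcription factor of type II cells, fell by 0.93, while Sftpc (-0.08) and Sftpb (0.05) did not pass. Of 9 junction genes 2 fell, F11r (-0.34) and Tjp1 (-0.62), and 0 rose. Of 10 genes of the transitional state between type II and type I cells 2 rose and 2 fell, with Plaur at 0.99 and Hbegf at -0.53. The counts of the junction and transitional lists are near those shares.

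Among the remaining lists, 2 of 11 mesenchymal genes rose and 2 fell, with Col1a1 at 1.35 and Inmt at -1.80. Club cell genes split 1 and 1 of 7, with Cldn10 at 1.29 and Aldh1a1 at -0.68, and ciliated cell genes 1 and 1 of 6, with Tekt2 at 1.21 and Tppp3 at -1.07. Of 4 lymphatic and mesothelial genes 1 fell, Lyve1 (-1.40), and Flt4 (-0.29) did not pass. Of 10 heart muscle genes 0 passed by limma, with Actc1 at -1.26 (limma adjusted p = 0.103) and Ryr2 at -0.21 (adjusted p = 0.0558), and without air rat 4 there was 1.

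**Figure D4:**
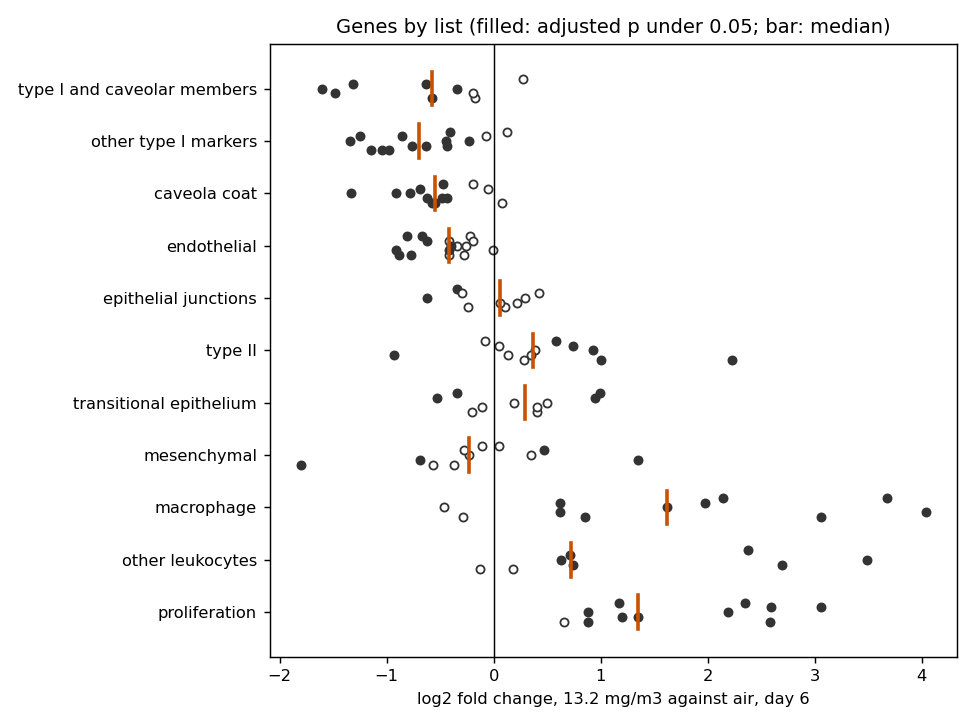
Log2 fold change at 13.2 mg/m3 against air on day 6 for single genes (points) of the 9 type I and caveolar genes and of 10 marker lists. Filled points passed the test, orange bars are medians, and points are spread vertically only for legibility. The other type I and caveolar coat genes lie mostly below 0 (medians -0.69 and -0.55), and macrophage and proliferation genes mostly above it (1.62 and 1.35).

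The further type I markers and the caveolar coat genes were also followed to the later day. At the high dose on day 28, 0 of the 14 type I markers (median -0.02) and 0 of the 13 caveolar coat genes (median -0.12) passed. The high dose effect was higher on day 28 than on day 6 for 7 of the 14, among them Cryab (1.37) and Sema3b (1.03). It was also higher for 4 of the 13, among them Popdc2 (1.04) and Ehd4 (0.53). Over all genes 5.49% were higher.

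Covariation among the 9 genes was read from correlations over the 30 arrays after each group's mean was taken out. Arrays of a group also differed by slide. Among the air rats of day 28, Clic5 had 7.65, 7.69 and 7.69 on slides 1 and 2 and 8.34 and 8.35 on slide 4, and Aqp5 had 4.79, 4.85 and 4.99 against 5.24 and 5.41, while Cav1 had 2.24, 2.36 and 2.43 against 2.06 and 2.37. The correlations are therefore given also with the slide taken out, an alternative chosen after seeing the data.

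With the group mean alone taken out, all 36 pairs were above 0 on the ratio scale, with a median of 0.36 and a range from 0.05 to 0.88. With the slide taken out as well, 31 of the 36 were above 0 and the range ran from -0.25 to 0.76. The highest pair by group alone, Aqp5 with Clic5, went from 0.88 to 0.59, Clic5 with Cldn18 from 0.79 to 0.53, and Clic5 with Cyp4b1 from 0.69 to 0.21. The pairs Cav1 with Cav2 (0.75 and 0.76) and Cav1 with Pdpn (0.66 and 0.67) hardly moved. Hopx went best with Cldn18, at 0.50 and 0.52.

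The order of the pairs also differed between the ratio and Cy5 alone. On Cy5 alone, with the group mean taken out, Cav1 with Clic5 was the highest pair, at 0.85 against 0.22 on the ratio, and Clic5 with Cldn18 the lowest, at 0.07 against 0.79. Cav1 with Ager was 0.50 against 0.05, and Cav1 with Aqp5 0.56 against 0.07. Cav1 with Cav2 (0.79) and Cav1 with Pdpn (0.64) were close to their values on the ratio. The points share the array and both dyes.

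Against the mean of other lists, Cav1 followed the caveolar coat genes at 0.72 on the ratio scale, and at 0.70 with the slide taken out. Clic5 followed the endothelial list at 0.89 and the type II list at 0.87, and these were 0.77 and 0.49 without the slide. For Aqp5 and the type II list the correlation went from 0.87 to 0.30. Cyp4b1 followed the further type I markers at 0.42 and the junction list at 0.78, and these were 0.20 and 0.52 without the slide. Which cells its RNA came from was not tested. These values are descriptions over 30 arrays and carry no test.

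Among the genes most like the mean of the 9, each gene scaled to its own spread over all 30 rats, stood Ushbp1 and Siah1 (Pearson r = 0.919 each), Gucy1a2 (0.903), Phactr1 (0.899), Hbb (0.896), Angpt1 (0.894) and Slc24a3 (0.893). The likeness rests partly on the group differences. Within groups, the same genes had correlations of 0.772 to 0.863, there with the mean of the 9 unscaled and the slide not taken out. These 7 genes were picked by their likeness to a mean that was itself lower at the high dose on day 6. Their own fall there is therefore no separate result. Their log2 fold changes ran from -0.45 for Siah1, a ubiquitin ligase, to -1.04 for Phactr1, a regulator of actin and protein phosphatase. Angpt1, a ligand of the endothelial receptor Tek, fell by 0.99 ± 0.22 (SE), and Hbb, a haemoglobin chain, by 0.90 ± 0.23 (SE).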

How the data were processed

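Spot intensity values for both dyes were deposited for each rat as written by Agilent Feature Extraction 11.0.1.1, per the file headers. Median spot and local background intensity were used, the mean signals first planned not being among the columns. The authors' deposited table of log2 ratios, for which the sources used here describe no steps, served as an alternative. Its columns correlated at 0.997 to 1 with unsubtracted loess ratios and had medians of -0.0314 to -0.00539, so its scale and direction were read as log2 of lung over reference.

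Signals were corrected with normexp (offset 50), log2 ratios were normalized by loess within each array, and control spots (6.76%) and outlier-flagged spots were left out. Probes well above background in Cy5 on at least 5 arrays were kept. The brightest probe stood for a gene, and 11331 of 18421 genes had a symbol from RefSeq GRCr8. The 6 group means were fitted together with limma 3.58.1 in R 4.3.3, with Benjamini-Hochberg adjustment within each contrast over all genes at 0.05. Fold changes are 2 to the power of the absolute log2 difference. Each replicate is a separate rat. With 5 rats a group the median SE was 0.115 between 2 groups and 0.163 for a difference of effects. A simulation of the day 6 high dose comparison on 18399 genes returned 40 of 67 changes of size 0.5 on the log2 scale, 64 of 67 of size 1 and 66 of 66 of size 2. Of 173 calls 3 were false. The simulation changed only those few genes and drew each gene's spread independently. In the data 36.5% of genes passed this comparison and arrays also differed by slide, so these rates do not carry over to it.

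Alternatives were no background subtraction, median centring, processed signals, Cy5 alone, the authors' table, other probe filters, the mean of probes, slide as a block, only the groups compared, and leaving out each rat. Cy3 alone, the lists on Cy5 alone or without air rat 4, and correlations without the slide were added after seeing the data. The members and lists were chosen with earlier results of these data known. Named genes are the 9, from each list the 2 members of smallest p (high dose against air, day 6), and the 8 most correlated with the mean of the 9, 1 of which is not reported here; others are named to fill out the counts of a list and were chosen after their values were seen. The labels give the nanoparticle as treatment also for rats at 0 mg/m3, which were taken as the air controls of the protocol.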

Additional observations from a re-analysis of the deposited data

Results flagged for a closer look

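In a group of 5 rats, 3 single values lay far from the rest by Dixon's criterion (gap over range above 0.71), of 54 groups of rats and genes examined, where chance gives about 1 in 20. Aqp5 in air rat 2 of day 6 had a log2 ratio of 4.54, with the others at 5.01 to 5.15. Cav1 in high dose rat 83 of day 28 had 2.31, with the others at 2.05 to 2.13. Cldn18 in high dose rat 75 of day 6 had 5.14, with the others at 4.51 to 4.68.

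The effect of the high dose differed between day 28 and day 6 by the test of the difference in limma for 4 of the 9 genes. Over all genes 16.7% passed that test in either direction, and 5.49% with a higher value on day 28. The difference in log2 fold change was 1.53 for Cyp4b1, 1.44 for Cav1, 1.33 for Cav2 and 0.57 for Pdpn.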

How the results depend on the processing

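The number of the 9 genes called was 6 at the high dose on day 6, and it was 5 or 6 without any 1 rat and 9 with Cy5 alone. At the low dose on day 6 the count of 1 became 0 with median centring and 3 with Cy5 alone, and ranged from 0 to 2 without single rats. Between the doses on day 6 the count of 3 became 5 with the authors' table (Pdpn and Hopx added) and was 3 to 4 without single rats. Clic5 passed there on Cy5 alone. For the difference of the high dose effect between days the count of 4 became 7 with Cy5 alone and was 3 to 4 without single rats. Over all genes in the main fit, 36.5% passed at the high dose and 6.72% at the low dose on day 6. Between the doses 11.9% passed, and 16.7% for that difference between days. With Cy5 alone the shares were 39.1% at the high dose, 9.26% at the low dose and 19.8% for that difference. On day 28, between air groups and for the low dose effect the count of the 9 stayed at 0 in each alternative run. The causes were not tested. No value called in the main fit changed sign, and no value called in an alternative had the opposite sign in the main fit. Cldn18 was called on Cy5 alone on day 6 (0.47 at the high dose, 0.43 at the low dose). In other alternatives it went down to -0.35 and -0.32 without passing. Cav1, Cav2, Cyp4b1 and Pdpn at the high dose on day 6 passed in the 10 alternatives to loess ratios, filters, probes, block and groups fitted; for Cav1 the log2 fold change lay between -1.73 and -1.44. No paired analysis was possible because no 2 groups share replicate numbers.

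Counts over all genes moved by more than 1.5 times with median centring: 573 in place of 1238 at the low dose on day 6, 1008 in place of 2188 between doses, 1623 in place of 3084 for the high dose effect between days, 159 in place of 359 for the low dose effect, 8 in place of 34 at the high dose on day 28 and 127 in place of 543 between air groups. With only the groups compared there were 1161 between air groups, 12 at the high dose on day 28 and 9 in place of 26 between doses there. Processed signals gave 55 at the high dose on day 28 and 5 in place of 2 at the low dose there; Cy5 alone gave 106 and 5. Leaving out single rats gave 1353 to 2591 between doses on day 6, 11 to 326 at the high dose on day 28, 2 to 6 at the low dose on day 28, 180 to 2495 between air groups and 17 to 24 between doses on day 28. At the high dose on day 6, 57.7% of called genes were higher. That share was 46.1% with the authors' table, 45.7% on Cy5 and 43.6% after median centring. At the low dose it was 74%, and 57.9% on Cy5. For the high dose effect between days it was 32.8%, against 50% on Cy5, 49.9% with the authors' table and 46% with processed signals. Median centring moved the median of all genes by up to 0.15 (log2).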
